A study of Mus musculus with 8 samples.

Results

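Hox genes encode homeodomain transcription factors that give cells along the body axis their position. They lie in the Hoxa, Hoxb, Hoxc and Hoxd clusters, and genes with the same number in different clusters, the paralogs, arose from 1 ancestral gene. In the embryo a low number is active towards the head and a high number towards the tail, an order known as colinearity. In the gut the highest numbers mark the hindgut: Hoxa13 and Hoxd13 pattern its end, and Hoxb13 is a known marker of distal colon and rectum. The members here were all genes on the array whose name is Hox, a cluster letter from a to d and a number. These were 38 of 27745 gene names, measured by 50 of 41174 probes.

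In colon tumors, 1 Hox gene of 33 tested was higher and 5 were lower, reading each gene by its brightest probe, while 13.4% of all 31870 probes tested were called. Hoxa11 was 2.15-fold higher in tumors than in normal colon. Hoxa13, Hoxb13, Hoxc6, Hoxd9 and Hoxd11 were 1.5-fold to 3.65-fold lower, and Hoxd13 was lower on 1 of its 2 probes. With the replicate number as a block, Hoxb13 (adjusted p = 0.0528), Hoxc6 (0.0691) and that Hoxd13 probe (0.0542) were not called. Genes numbered 1 to 5 gave no called probe. Which of these calls were made depended on single samples, as set out below.

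The tumors were 4 colon adenomas, labelled Tcf4Het ApcHet, from C57BL/6 mice. The comparison tissue was 4 normal colons, labelled TCF4WT ApcHet, of the same strain. Both groups therefore carry 1 mutant copy of Apc (ApcMin in the protocol), whose protein marks beta-catenin for destruction, and only the tumor mice also carry 1 mutant copy of Tcf4, an older name of Tcf7l2. The mice are described as adult littermates, with the distal 2.5 cm of the colon as the source of RNA. The tumor state and the Tcf4 genotype cannot be told apart. The samples are labelled as independent tissue samples, so that p-values measure the spread between these samples. These are bulk tissues, in which fewer cells of a type and less RNA per cell cannot be told apart.

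Levels are values of the authors' log2 table, 1 column per sample, and differences are tumor minus normal on that log2 scale with the SE of the fit. A probe was tested when its value was at or above a detection limit of 5.59 in at least 4 of 8 samples, and a call is a limma adjusted p under 0.05 over all 31870 probes so kept. Tcf7l2 itself read 12.33 to 13.20 in tumors and 14.19 to 14.85 in normals, and whether its probe lies in the altered part of the gene was not analysed here. Scanner files were deposited beside the table, and only 4 of the 8 columns match one, in the rank order of all probes and in their empty cells. Column tumor 1 matches the file labelled tumor 1, column normal 1 the file labelled normal 2 and column normal 2 the file labelled normal 3. Column tumor 2 matches the file labelled normal 4, so that the file label contradicts its group label. In its values that column had Pearson correlations of 0.977 to 0.986 to the other tumors and 0.892 to 0.946 to the normals. Column normal 3 lay nearer to the tumors, with Pearson correlations of 0.946 to 0.967 to the tumors and 0.857 to 0.936 to the other normals. Normals 2 and 4 correlated at 0.986 with each other and at 0.853 to 0.935 with the remaining columns. Normal 1 correlated at 0.934 to 0.936 with the other normals and at 0.918 to 0.951 with the tumors. The column of normal 1 had the highest background, with a 95th percentile of 7.70 for probes not well above background, against 4.5 to 5.82 in the other traced columns.

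Promoters of called genes (Hoxa11, Hoxa13, Hoxd9 and Hoxd11) and of Hoxd13, which was called on 1 probe, are shown for their CpG content, since unmethylated CpG-rich DNA is where Polycomb and Trithorax proteins act on Hox genes. Each line is the 250 bases upstream of a RefSeq start in build GRCm38.p6, read 5′ to 3′ on the gene's strand, with every CpG in capitals.
Hoxa11, chr6:52245811-52246060, minus strand: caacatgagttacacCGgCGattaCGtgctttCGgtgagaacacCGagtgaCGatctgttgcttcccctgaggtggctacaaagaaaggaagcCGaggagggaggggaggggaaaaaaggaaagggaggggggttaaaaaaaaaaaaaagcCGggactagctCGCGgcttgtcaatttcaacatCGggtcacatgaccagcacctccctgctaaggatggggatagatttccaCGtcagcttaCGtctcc
Hoxa13, chr6:52260881-52261130, minus strand: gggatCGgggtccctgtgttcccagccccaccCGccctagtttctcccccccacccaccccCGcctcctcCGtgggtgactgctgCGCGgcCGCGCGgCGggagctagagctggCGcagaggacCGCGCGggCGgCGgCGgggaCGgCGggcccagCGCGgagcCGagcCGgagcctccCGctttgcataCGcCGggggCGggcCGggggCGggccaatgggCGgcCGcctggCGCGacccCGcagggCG
Hoxd9, chr2:74697513-74697762, plus strand: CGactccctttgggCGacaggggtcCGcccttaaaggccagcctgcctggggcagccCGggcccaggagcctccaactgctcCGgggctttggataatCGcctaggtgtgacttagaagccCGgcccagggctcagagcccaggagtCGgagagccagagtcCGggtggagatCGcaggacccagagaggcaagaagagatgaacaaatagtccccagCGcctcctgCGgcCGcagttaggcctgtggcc
Hoxd11, first start, chr2:74679308-74679557, plus strand: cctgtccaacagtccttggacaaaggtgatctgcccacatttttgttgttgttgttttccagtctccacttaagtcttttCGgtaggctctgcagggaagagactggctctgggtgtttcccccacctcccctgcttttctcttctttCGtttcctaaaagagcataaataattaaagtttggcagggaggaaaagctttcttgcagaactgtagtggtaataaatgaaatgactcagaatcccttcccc
Hoxd11, second start, chr2:74682073-74682322, plus strand: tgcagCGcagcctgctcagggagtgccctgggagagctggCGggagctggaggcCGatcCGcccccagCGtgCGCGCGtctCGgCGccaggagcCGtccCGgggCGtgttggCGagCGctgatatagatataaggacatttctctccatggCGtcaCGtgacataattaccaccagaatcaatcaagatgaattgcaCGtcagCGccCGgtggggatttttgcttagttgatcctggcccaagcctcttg
Hoxd13, chr2:74667975-74668224, plus strand: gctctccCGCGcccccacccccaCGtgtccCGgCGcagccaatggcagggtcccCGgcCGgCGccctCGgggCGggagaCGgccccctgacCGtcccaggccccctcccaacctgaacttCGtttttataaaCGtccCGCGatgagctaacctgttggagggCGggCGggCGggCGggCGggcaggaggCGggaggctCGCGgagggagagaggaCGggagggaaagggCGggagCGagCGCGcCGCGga

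The Hoxa13 window holds 35 CpG, that of Hoxd13 31 and those of Hoxa11 and Hoxd9 13 each, while the windows of Hoxd11 hold 2 at its first start and 20 at its second. Over the 22 of 38 Hox genes with an entry taking the first start listed, the median was 12 CpG, against 6 over 27025 genes. GC content had a median of 56.8% in these Hox windows and 52% over all genes. The TCF/LEF core, searched as CTTTGAT and CTTTGAA on both strands, was present in 2 Hox windows (9.09%), those of Hoxd8 and Hoxd12, against 7.67% of all windows. A HOX13-type motif, searched as TCGTAAA and CAATAAA on both strands, was present in 1 Hox window (4.55%), that of Hoxb8, against 4.88% of all. None of the windows printed above held either motif.

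Of the 50 Hox probes, 41 passed the detection filter and stood for 33 genes. The filter removed Hoxb1, Hoxc8, Hoxc10, Hoxc12 and Hoxd1 entirely, and second probes of Hoxb2, Hoxb8 and Hoxd3. Among the 41, 1 probe was called higher and 7 lower in tumors, or 19.5%, against 13.4% of all 31870 probes (5.62% higher and 7.83% lower). The tumor and normal values did not overlap for 13 Hox probes, 3 of them higher and 10 lower in tumors, while 22.8% of all probes had no overlap (10.2% higher and 12.6% lower). In the fit with the replicate number as a block, 1 Hox probe was higher and 6 were lower, against 3.92% and 7.40% of all probes (11.3% in all). Refitted with 1 probe per gene, 1 Hox gene was higher and 6 were lower of 33, against 7.01% and 7.55% of 21625 genes (14.6% in all). The median difference of the Hox probes was -0.45, against 0.05 over all probes, with 14 positive and 27 negative.

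The calls were unevenly spread over the paralog numbers. None of 16 probes of paralogs 1 to 5 passed the limma test (4 had an unadjusted p under 0.05). Of 14 probes of paralogs 6 to 9, 2 were called, both lower. Of 11 probes of paralogs 10 to 13, 1 was called higher and 5 lower (54.5%), and 8 had no overlap between groups. By cluster, the median difference was 0.07 in Hoxa, -0.51 in Hoxb, -0.68 in Hoxc and -0.95 in Hoxd. These are counts of a few probes, several of them for the same gene, and carry no test of their own.

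**Figure D1:**
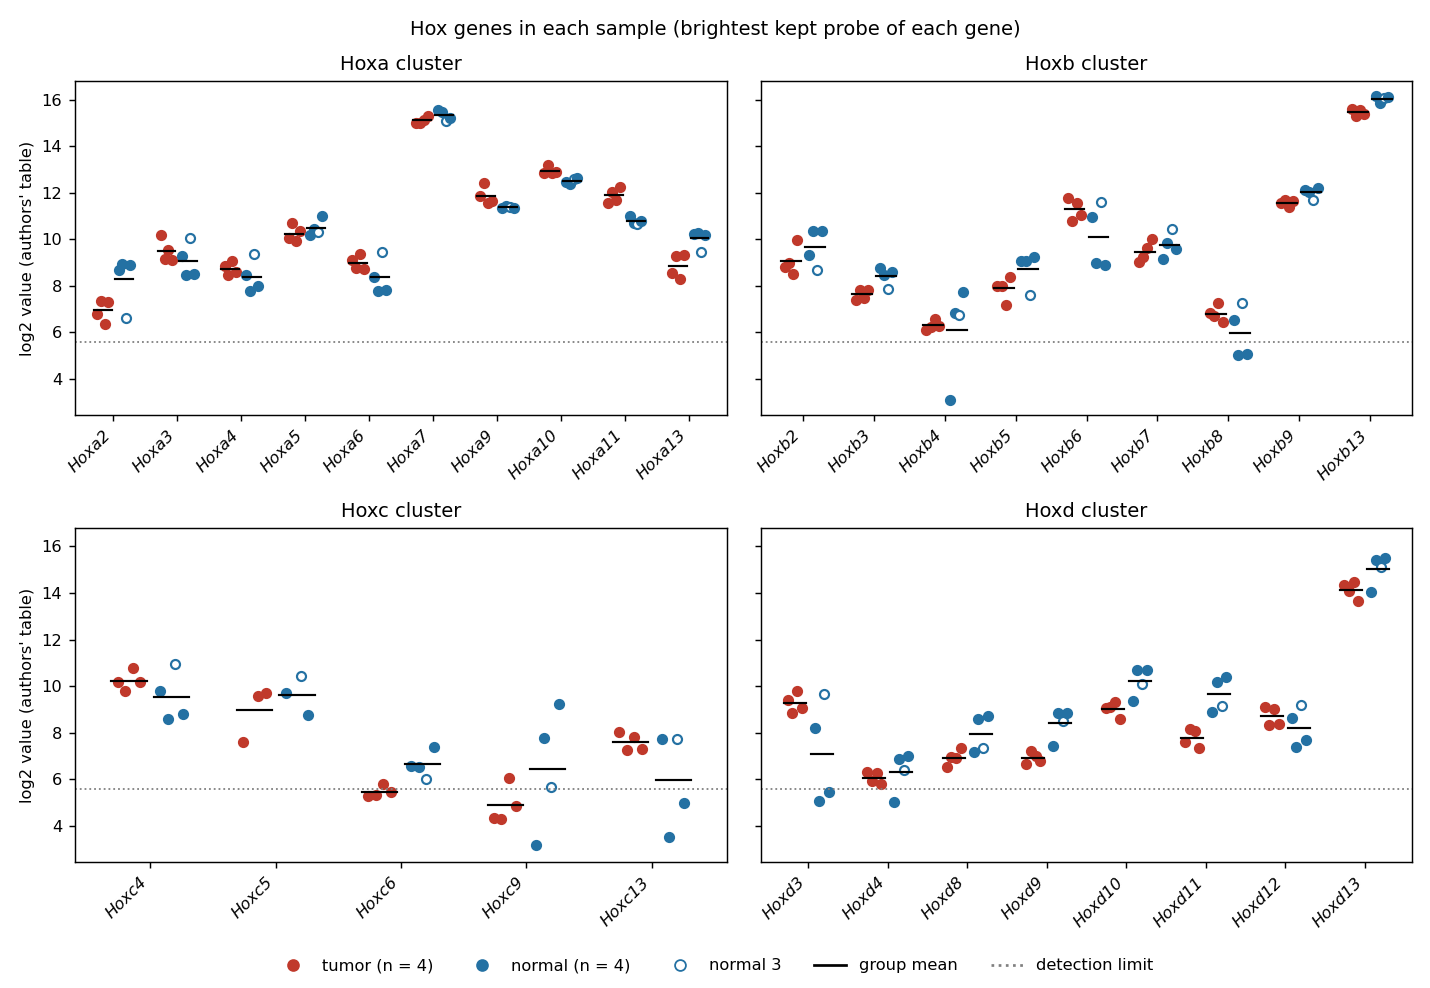
Level of Hox genes (log2 value of the authors' table, brightest kept probe) in 4 tumors (red) and 4 normals (blue, normal 3 open), by cluster and paralog number, with group means as bars and the detection limit of 5.59 as a dotted line. Hoxa9, Hoxa10 and Hoxa11 are higher in every tumor than in any normal. Hoxa13, Hoxb3, Hoxb9, Hoxb13, Hoxc6, Hoxd9, Hoxd10 and Hoxd11 are lower in every tumor. Of these, Hoxa9, Hoxa10, Hoxb3, Hoxb9 and Hoxd10 were not called.

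Paralog 13 genes act last in the series, at the hindgut end. Probe positions below are those of the file headers, on build mm8, and the exon or UTR each lies in was not analysed here. Hoxb13 (probe at chr11:96012144-96012203, plus strand) read 15.61, 15.28, 15.55 and 15.39 in tumors 1 to 4 and 16.14, 15.83, 16.08 and 16.12 in normals 1 to 4. Each tumor lay below every normal, with little spread in either group. The difference was -0.59 ± 0.14, or 1.5-fold lower (adjusted p = 0.0374), and the 4 same-numbered pairs gave -0.53, -0.56, -0.53 and -0.73. Hoxb13 lost its call with the replicate block (adjusted p = 0.0528) and without the detection filter (0.052).

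Hoxa13 was measured by 2 probes (chr6:52188599-52188658 for the brighter and chr6:52188440-52188499 for the other, minus strand), both lower in tumors. On the brighter probe it read 8.53, 9.29, 8.28 and 9.31 in tumors, against 10.24, 10.28, 9.45 and 10.16 in normals. All tumors were below all normals, and normal 3 was the normal nearest to them. The difference was -1.18 ± 0.31 (adjusted p = 0.0458), and on the second probe -1.29 ± 0.25 (adjusted p = 0.0226). Both calls were also made with the replicate block, while without the detection filter the brighter probe was not called (adjusted p = 0.0617).

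Hoxd13 gave different calls on its probes (chr2:74472030-74472089 for the brighter and chr2:74470787-74470846 for the dimmer, plus strand). The brighter probe read 14.33, 14.09, 14.49 and 13.67 in tumors, against 14.05, 15.41, 15.12 and 15.53 in normals. Normal 1 lay among the tumors, and the difference of -0.88 ± 0.35 missed the threshold (adjusted p = 0.132). The dimmer probe read 8.61, 9.0, 8.34 and 8.17 in tumors, against 9.58, 11.47, 9.61 and 11.56 in normals, with no overlap. Its difference was -2.03 ± 0.52 (adjusted p = 0.044, and 0.0542 with the replicate block). This probe was not called without the detection filter. Both probes had their highest values in normals 2 and 4.

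Hoxc13, best known from hair and nail, went the other way in value but was not called. It read 8.01, 7.25, 7.83 and 7.29 in tumors, against 7.71, 3.50, 7.74 and 4.95 in normals. Normals 1 and 3 lay within the tumors' range and only normals 2 and 4 fell below the detection limit. The value of normal 1 lay at that column's own background percentile of 7.70 and was not well above background in its scanner file. The difference was 1.62 ± 0.95 (adjusted p = 0.232).

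Hoxa11 and Hoxd11, which together shape the forearm and the kidney in mice, moved in opposite directions. Hoxa11 (probe at chr6:52171691-52171750, minus strand) read 11.57, 12.01, 11.69 and 12.25 in tumors, against 10.99, 10.68, 10.65 and 10.78 in normals. Every tumor was above every normal, normal 3 included. The difference was 1.11 ± 0.19, or 2.15-fold higher (adjusted p = 0.0182), and the pairs gave 0.59, 1.33, 1.04 and 1.47. By the matching scanner files, pair 1 lay on slide 1 and pair 2 on slide 2, so that those differences are within slides. Among the 41 Hox probes it had the lowest adjusted p.

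Hoxd11 (probe at chr2:74484810-74484869, plus strand) read 7.58, 8.15, 8.07 and 7.33 in tumors, against 8.87, 10.18, 9.16 and 10.38 in normals. The groups did not overlap, and normals 2 and 4 were about 1 unit above the other normals. The difference was -1.87 ± 0.39, or 3.65-fold lower (adjusted p = 0.0254). The pairs gave -1.29, -2.03, -1.10 and -3.06.

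The neighbours numbered 10 showed the same pair of directions without passing the threshold. Hoxa10, which acts with Hoxa11 in the uterus, averaged 12.94 ± 0.18 in tumors and 12.50 ± 0.11 in normals (SD, n = 4 each), with no overlap and a difference of 0.43 ± 0.14 (adjusted p = 0.084). Hoxd10 averaged 9.02 ± 0.31 in tumors and 10.21 ± 0.62 in normals, also with no overlap, a difference of -1.19 ± 0.33 and an adjusted p of 0.0506. Hoxd12 averaged 8.71 ± 0.41 in tumors and 8.21 ± 0.84 in normals, and its groups overlapped (adjusted p = 0.384).

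Paralog 9 genes sit at the border between the middle and the tail end of the clusters. Hoxd9 was called on its brighter probe, which lies at chr2:74500458-74500517 on the plus strand and read 6.67, 7.21, 6.97 and 6.78 in tumors, against 7.42, 8.84, 8.52 and 8.86 in normals. The tumors were all lower, but the value of normal 1 was under that column's own background percentile of 7.70 and not well above background in its scanner file. The difference was -1.50 ± 0.33 (adjusted p = 0.030), while the second probe gave -0.50 ± 0.33 with overlapping groups (adjusted p = 0.281).

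Hoxa9, a regulator of blood stem cells as well as of position, read 11.87, 12.41, 11.57 and 11.63 in tumors, against 11.34, 11.42, 11.37 and 11.34 in normals. Every tumor was above every normal, with a difference of 0.50 ± 0.20 that was not called (adjusted p = 0.132). Hoxb9 read 11.56, 11.68, 11.37 and 11.63 in tumors, against 12.11, 12.02, 11.69 and 12.21 in normals. Its tumors were all lower, with a difference of -0.45 and no call (adjusted p = 0.0985), and its second probe gave -0.11 ± 0.35 with overlap. Hoxc9 read 4.31, 4.30, 6.04 and 4.82 in tumors, against 3.18, 7.75, 5.67 and 9.21 in normals. Only 1 tumor reached the detection limit, and the normals spread from under it to the highest values of the gene, in normals 2 and 4 (adjusted p = 0.339).

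Paralog 6 genes belong to the trunk part of the clusters. Hoxc6 was called lower and lay near the detection limit. Its probe, at chr15:102839635-102839696 on the plus strand, read 5.29, 5.33, 5.79 and 5.45 in tumors, against 6.57, 6.53, 6.01 and 7.40 in normals. The groups did not overlap, but only 1 of 4 tumors reached 5.59, and normal 1 was not well above background in its scanner file. The difference was -1.16 ± 0.29 (adjusted p = 0.0409). It was not called with the replicate block (adjusted p = 0.0691), with a trended prior (0.0731) or without the detection filter (0.0555).

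The other members of that group were not called. Hoxa6 read 9.12, 8.78, 9.36 and 8.71 in tumors, against 8.37, 7.78, 9.46 and 7.82 in normals. Normal 3 was the highest sample of all, and the other normals were below every tumor (adjusted p = 0.244). Hoxb6 read 11.76, 10.78, 11.57 and 11.03 in tumors, against 10.95, 8.97, 11.61 and 8.91 in normals on its brighter probe, again with normals 2 and 4 lowest. That difference was 1.17 ± 0.65 (adjusted p = 0.215), and the second Hoxb6 probe pointed the other way, at -0.58 ± 0.23 (adjusted p = 0.126).

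The remaining middle genes were not called. Hoxa7, which helps set trunk vertebrae in mice, averaged 15.11 ± 0.15 in tumors and 15.32 ± 0.21 in normals (adjusted p = 0.330). Hoxb7 averaged 9.46 ± 0.45 in tumors and 9.74 ± 0.53 in normals (adjusted p = 0.520). Hoxb8 averaged 6.79 ± 0.33 in tumors and 5.95 ± 1.11 in normals (adjusted p = 0.252). Hoxd8 averaged 6.93 ± 0.33 in tumors and 7.95 ± 0.80 in normals, with a difference of -1.02 ± 0.39 (adjusted p = 0.123). In each of these the groups overlapped.

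Head-end genes, paralogs 1 to 5, pattern the hindbrain and neck, and are also active in the nerve and muscle layers of the gut. In Hoxa, the differences of the brightest probes of Hoxa2 to Hoxa5 ran from -1.33 for Hoxa2 to 0.42 for Hoxa3. In Hoxb, they ran from -0.85 for Hoxb5 to 0.19 for Hoxb4. In Hoxc they were 0.70 for Hoxc4 and -0.68 for Hoxc5, the second from 3 tumors and 3 normals because tumor 2 and normal 2 are empty. In Hoxd they were 2.19 for Hoxd3 and -0.26 for Hoxd4. Hoxb2 differed by -0.61 and Hoxb3 by -0.78, and only Hoxb3 had groups without overlap (adjusted p = 0.0596).

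The replicate block added calls in this group for 2 probes. The dimmer Hoxa3 probe read 7.21, 7.63, 6.24 and 7.36 in tumors, against 8.82, 9.21, 7.49 and 9.12 in normals. Each tumor was below the normal of its own number, with pair differences from -1.77 to -1.25, although tumor 2 was above normal 3 (adjusted p = 0.0604, and 0.0316 with the block). The brighter Hoxa3 probe gave 0.42 ± 0.41, so that the direction of this gene differs between its probes. Hoxb5, which has a role in enteric nerve development in mice, read 7.98, 8.0, 7.18 and 8.36 in tumors, against 9.06, 9.04, 7.59 and 9.23 in normals (adjusted p = 0.188, and 0.0466 with the block). Both were singled out after their values were seen.

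**Figure D2:**
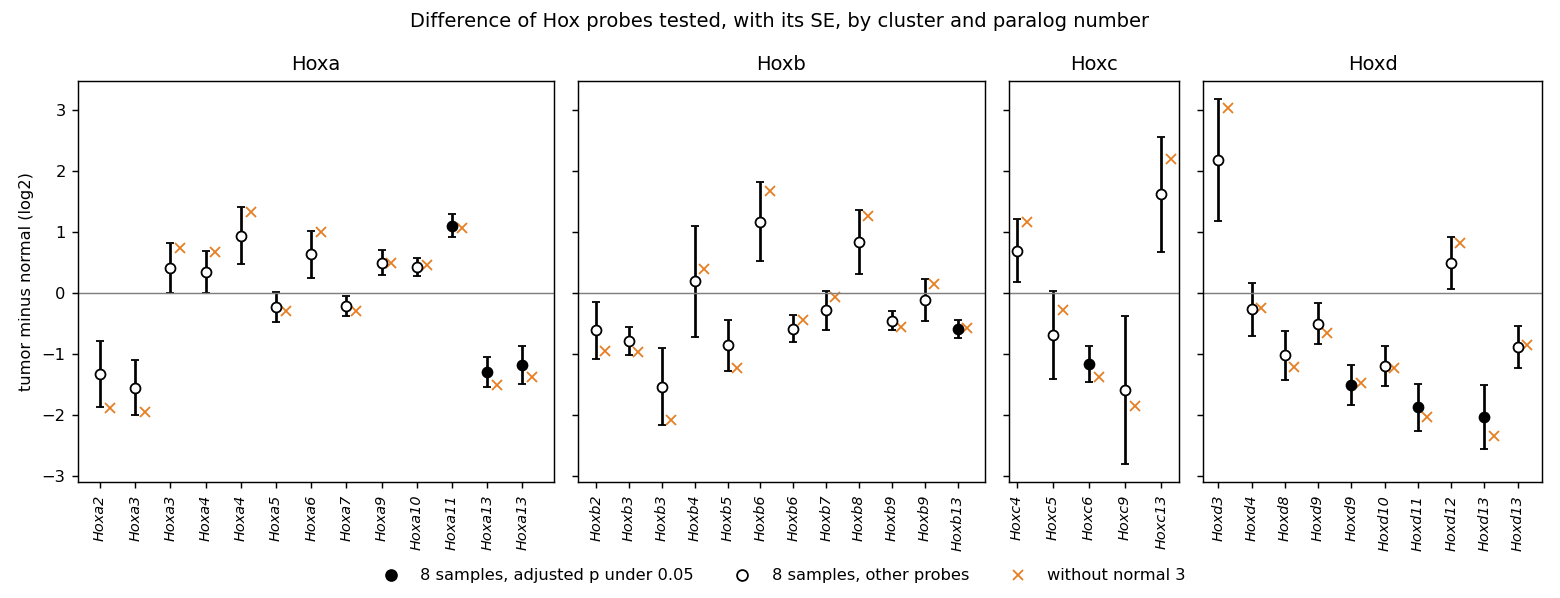
Difference between tumors and normals (log2, tumor minus normal) of Hox probes tested, with SE, by cluster and paralog number. Filled points passed an adjusted p of 0.05, and orange crosses give the difference without normal 3. The called probes lie at Hoxa11 (1.11) and, below 0, at Hoxa13, Hoxb13, Hoxc6, Hoxd9, Hoxd11 and the dimmer Hoxd13 probe (-2.03).

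Single samples decided the calls. No Hox probe was called by limma without tumor 2, tumor 3, normal 2 or normal 4, and the calls over all probes then numbered 344, 1, 618 and 35 of 31870. In those same fits 12 to 14 Hox probes had an unadjusted p under 0.05. Without tumor 1 the only Hox call was Hoxa11, and without tumor 4 the calls were Hoxa11 and the second probe of Hoxa13. Without normal 1, Hoxa11, Hoxd9, Hoxd10 and Hoxd11 were called. Leaving out normal 3 raised the Hox calls to 9 higher and 15 lower, or 58.5% of the 41 probes, while 51.7% of all probes were then called (27.4% higher and 24.3% lower). The direction of each of the 8 called probes was the same in all 8 fits: the Hoxa11 difference ran from 0.99 to 1.21, that of Hoxd11 from -2.13 to -1.62 and that of Hoxb13 from -0.66 to -0.53.

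Without normal 3 all 8 of the called probes were called again. The difference of Hoxa11 was then 1.07 (adjusted p = 0.00791), of Hoxd11 -2.03 (0.00941), of Hoxd9 -1.47 (0.0184), of Hoxb13 -0.57 (0.0209) and of Hoxc6 -1.37 (0.00778), each as a limma adjusted p. The difference of Hoxa13 was -1.37 on its brighter probe (adjusted p = 0.011) and -1.50 on the other (0.00249), and the dimmer Hoxd13 probe gave -2.34 (0.0117). Hoxa2 shows how much rested on that sample: it read 6.78, 7.33, 6.37 and 7.31 in tumors, against 8.67, 8.94, 6.60 and 8.90 in normals. Normal 3 lay among the tumors, and the difference was -1.33 (adjusted p = 0.139) with it and -1.89 (0.00351) without it.

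Markers of other genes and cells moved with part of these values. From Hoxd8 on, every Hoxd probe except that of Hoxd12 had its highest values in normals 2 and 4. The 10 smooth muscle markers averaged 14.12, 13.78, 13.87 and 14.74 in tumors 1 to 4, against 14.33, 15.60, 13.40 and 15.49 in normals 1 to 4, so that normals 2 and 4 were highest there too. None of the 10 was called, with none at an unadjusted p under 0.05, and their median difference was -0.48. Without normal 3, when 51.7% of all probes were called, 3 of the 10 were called lower and 0 higher. Among the tumors, tumor 4 had the highest smooth muscle mean and the lowest Hoxd11 and Hoxd13. Normals 2 and 4 also had the highest means of the epithelial markers (17.53 and 17.54) and Hox cofactors (10.03 and 10.04) described below. The same held for the proximal colon genes (13.37 and 13.88), so the pattern is not particular to muscle. The remaining lists did not share it. The part of muscle content, or of these other genes, in the Hoxd differences was not tested.

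Hoxd3 and several other probes followed a different set. Hoxd3 read 9.41, 8.83, 9.80 and 9.07 in tumors, against 8.22, 5.05, 9.65 and 5.45 in normals. Its difference was the highest of the Hox probes, at 2.19 ± 0.997, and was not called (adjusted p = 0.171). The 648 kept probes of odorant receptor genes, named Olfr, averaged 7.91, 7.46, 8.07 and 7.57 in tumors, against 7.07, 5.66, 8.18 and 5.81 in normals, a median difference of 1.11. In Hoxd3 and in the Olfr mean alike, normals 2 and 4 were lowest and normal 3 lay near the tumors. Hoxa6, the brighter Hoxb6 probe, Hoxb8, Hoxc4, Hoxc13 and Hoxd12 also had their lowest values in normals 2 and 4. So did the brighter probes of Hoxa3 and Hoxa4 and the second Hoxb9 probe. Whether their differences are separate from that of the Olfr probes was not tested.

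**Figure D3:**
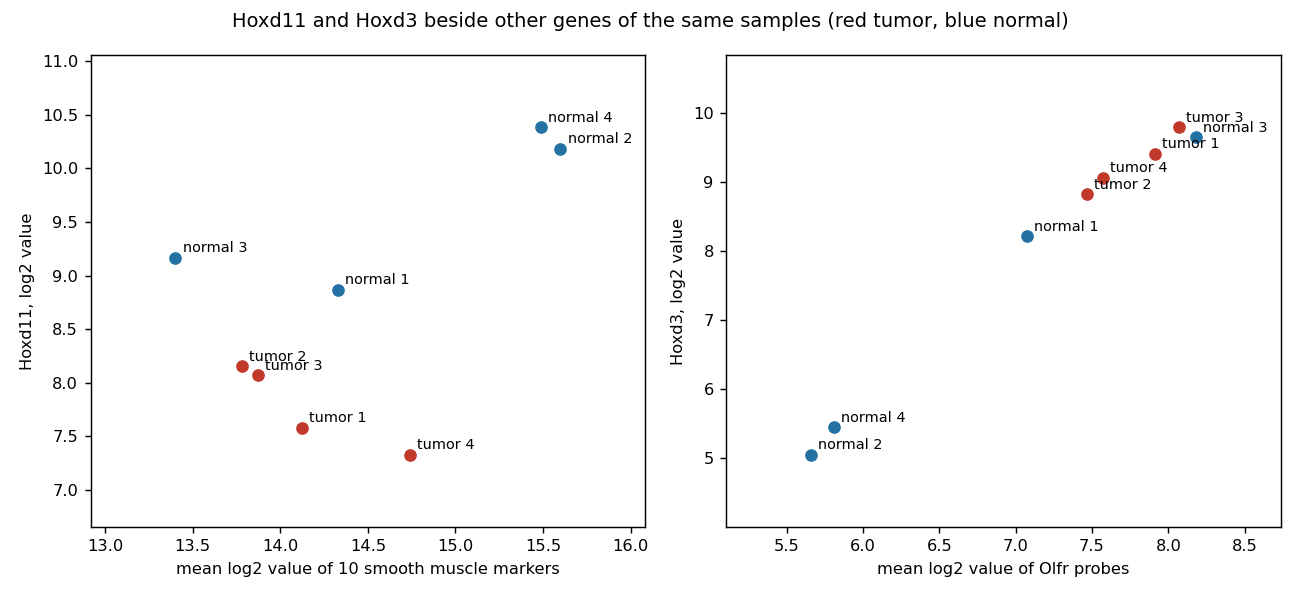
Left, Hoxd11 (log2 value) against the mean of 10 smooth muscle markers in each sample, and right, Hoxd3 (log2 value) against the mean of the Olfr probes, with tumors in red and normals in blue. Normals 2 and 4 are highest on both axes on the left and lowest on both on the right, and on the left the 4 tumors lie below the 4 normals for Hoxd11.

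Genes that act with or above the Hox genes were read from fixed lists, each gene by its brightest kept probe, against the same 13.4% of all probes. The Hox cofactors Pbx, Meis and Pknox bind DNA together with Hox proteins. None of 9 passed the limma test (1 had an unadjusted p under 0.05), and they had a median difference of -0.01. Cdx1 and Cdx2, caudal-type factors that switch on posterior Hox genes and intestinal identity, were tested in a list of 7 with the ParaHox genes, relatives outside the clusters, and the Evx genes, which border the clusters. Of these 1 rose and 1 fell.

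Cdx1 read 11.57, 11.06, 11.70 and 11.80 in tumors, against 13.31, 13.16, 12.51 and 13.26 in normals. All tumors were lower, and the difference was -1.53 ± 0.24 (adjusted p = 0.0171). Cdx2 was -1.22 ± 0.36 (adjusted p = 0.0638). Evx1, at the end of the Hoxa cluster beyond Hoxa13, read 12.31, 12.89, 12.06 and 11.68 in tumors, against 9.05, 8.89, 11.65 and 8.52 in normals. Normal 3 came closest to the tumors, and the difference was 2.70 ± 0.68 (adjusted p = 0.040, and 0.057 with the replicate block).

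Retinoic acid switches on head-end Hox genes in the embryo. In its list of 16, 4 genes rose and 2 fell, with a median difference of 0.25. The receptor Rarb rose by 2.69 ± 0.57 (adjusted p = 0.0272), the synthesis enzyme Rdh10 by 1.67 ± 0.33 (0.0259) and Aldh1a3 by 2.20 ± 0.57 (0.0446). The receptor Rxra fell by 0.70 ± 0.14 (adjusted p = 0.025), and the enzyme Aldh1a1 fell by 1.58 ± 0.35 (0.0297). Neither Cyp26a1 nor Cyp26b1, which break retinoic acid down, was called.

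Polycomb proteins hold Hox genes silent and Trithorax proteins keep them active. Of 23 such genes, 1 rose and 2 fell, with a median difference of 0.05. The Polycomb reader Cbx2 rose by 1.02 ± 0.22 (adjusted p = 0.0279). The alternative reader Cbx7 differed by -0.75 ± 0.17 (adjusted p = 0.0296, and 0.0574 with the replicate block), and the methyltransferase Ezh1 by -0.67 ± 0.15 (0.0327, and 0.0543 with the block). Ezh2, the methyltransferase of dividing cells, differed by 0.93 ± 0.26 and missed the threshold (adjusted p = 0.0521).

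Marker genes of the distal and of the proximal colon were both among those that fell. Of 12 distal colon genes, 2 fell, Wfdc2 (-1.08) and the water channel Aqp8 (-2.04), with a median difference of -0.95, and the block called 4. Of 9 proximal colon genes, 5 fell and none rose, with a median of -1.37. Among them were Slc37a2 (-3.58), Hao2 (-2.32), Car4 (-2.17) and Nxpe4 (-1.37, adjusted p = 0.0647 with the block). Of 19 small intestine genes, 1 rose and 4 fell, with a median of -0.55, and with the block none rose and 3 fell. Called were Onecut2 (5.30), Slc5a1 (-1.44), Mep1a (-1.97), Enpep (-1.98) and Rbp2 (-1.40). Without normal 3, when 51.7% of all probes were called, the list counts were 1 higher and 6 lower for the distal colon, 0 and 5 for the proximal colon and 5 and 5 for the small intestine. They were then 1 and 3 for the cofactors, 4 and 3 for the Cdx, ParaHox and Evx genes, 6 and 2 for retinoic acid and 5 and 4 for Polycomb and Trithorax.

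Cell type markers give the tissue makeup beside these values. Of 12 epithelial markers, none rose and 2 fell, Krt20 and Cdh17, with a median difference of -0.41. Of 12 fibroblast markers, 2 rose, Thy1 and Vim, with a median of 0.78. Of 13 leukocyte markers, 5 rose, including S100a8 (5.41), S100a9 (5.25) and Cd68 (1.61), with a median of 0.99, and 3 with the block. Of 9 endothelial markers, Cdh5 rose, and of 11 nerve and glia markers, Erbb3 fell, a receptor that epithelium also expresses. The block added Esam among the endothelial markers (adjusted p = 0.0476), Elavl4 among those of nerve and glia (0.049) and Trp63, lower, among the squamous ones (0.0448). None of 9 squamous and anal epithelium markers passed the limma test (5 had an unadjusted p under 0.05). The squamous means ran from 9.42 to 10.25 in tumors and from 8.62 to 10.99 in normals. Without normal 3, when 51.7% of all probes were called, 1 epithelial marker was higher and 7 were lower. The counts were then 3 higher and 0 lower for fibroblasts, 8 and 1 for leukocytes and 3 and 1 for endothelium. For nerve and glia they were 3 and 5, and for squamous epithelium 3 and 1. The part of any of these cell types in the Hox differences was not tested.

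The scanner files give a second reading of Hox levels. Levels there are log2 signal minus the file's 75th percentile. The 4 files that match no column are labelled normal 1, tumor 2, tumor 3 and tumor 4, and the 4 that match one are labelled tumor 1, normal 2, normal 3 and normal 4. The share of probes well above background was 70.4% to 80.9% in the files without a column and 55.6% to 82.8% in the matching ones. The split follows the labels except for the files labelled normal 1 and tumor 1. Label and split are thus hardly separable, and the levels are described without a test.

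Hoxb13 read -6.78, -7.28, -2.05 and -6.43 in the files without a column, against 4.12, 4.90, 4.12 and 3.77 in the matching files. Only the file labelled tumor 3 was well above background among those without a column. Hoxd13 read -8.51, -7.33, -2.54 and -8.53 in the files without a column, against 2.84, 2.72, 3.73 and 2.60 in the matching files, with the same single file above background. Hoxa11 read -8.91, -7.96, -4.93 and -8.54 there, against 0.08, -0.52, -0.83 and 0.55 in the matching files. Hoxa13 and Hoxd10 were well above background in none of the files without a column and in all matching ones.

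Several Hoxb and Hoxc genes of paralogs 6 to 9 ran the other way, but Hoxa7 and Hoxa9 did not. Hoxa7 read 0.69 to 3.10 in the files without a column, against 3.50 to 4.28 in the matching files, and Hoxa9 read -3.44 to -1.31, against -0.14 to 0.93. Hoxb7 read 3.32, 3.20, 2.45 and 1.55 in the files without a column, against -2.18, -2.60, -1.78 and -2.35 in the matching files. Hoxc6 read -2.01, -1.71, -1.91 and -1.55 there, against -5.52, -5.40, -6.02 and -6.08 in the matching files, 2 of which were not well above background. Hoxc9 read -1.02, -0.69, -1.50 and -2.33 there, against -6.53, -6.36, -4.45 and -7.30 in the matching files, where only the file labelled normal 3 was well above background.

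Counted over probes well above background in any file, the split was one-sided only for the highest numbers. Of 12 such probes of paralogs 10 to 13, 9 were lower in every file without a column than in any matching file and none was higher. Of 16 probes of paralogs 6 to 9, 3 were lower, 5 higher and 8 overlapped, and of 18 probes of paralogs 1 to 5, 3 were lower, 4 higher and 11 overlapped. In the Hoxa cluster every probe without overlap was lower in the files without a column, at low and high numbers alike. Over all 36027 probes above background in any file, 6.78% were lower in this sense and 6.47% higher. The small intestine genes averaged 2.86, 2.57, 4.06 and 3.64 in the files without a column, against -0.48, -1.57, -1.60 and -1.70 in the matching files. The distal colon genes averaged -0.82, -1.30, -0.15 and -1.71 there, against 2.29, 3.07, 1.99 and 1.71. Hoxa11, Hoxb13 and Hoxd13 were not well above background in 3 of the 4 files without a column, whose labels name colon. Which tissue each file holds was not tested.

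**Figure D4:**
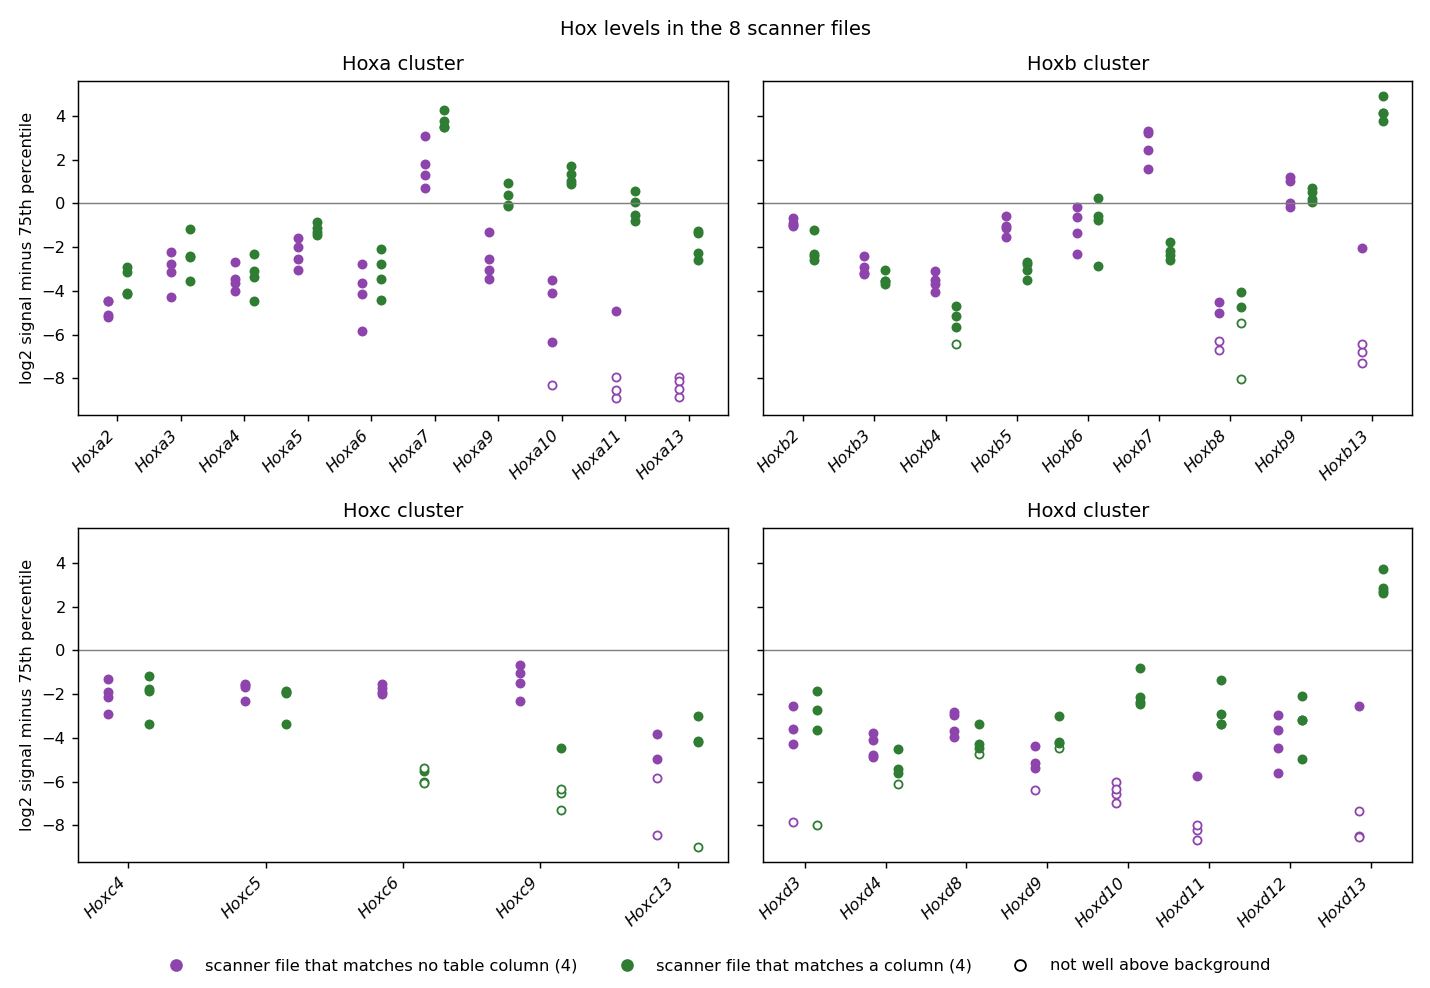
Level of Hox genes in the 8 scanner files (log2 signal minus the file's 75th percentile), with the 4 files that match no table column in purple and the 4 that match one in green, and open circles where the probe was not well above background. From Hoxa7 to Hoxa13, and in Hoxb13, Hoxd10, Hoxd11 and Hoxd13, the purple points lie below the green ones, while in Hoxb7, Hoxc6 and Hoxc9 they lie above them.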

How the data were processed

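RNA of 4 colon tumors and 4 normal colons was hybridised to 1-colour Agilent arrays of design 014868, whose number limits the precision. The deposited table holds the authors' log2 values, 1 column per sample; no label states the scale, which was taken from the columns that match a scanner file, and the equal column medians (8.51) and 75th percentiles (11.40) show quantile normalisation. The scanner files hold intensity values, background-subtracted by Feature Extraction 9.5.1.1 per the file headers (10.1.1.1 per the submitters' processing notes), with probe coordinates on mm8.

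The Hox genes and all lists were chosen with earlier results of these data known. Column labels set the groups. Probes at or above 5.59 in at least 4 of 8 samples were kept, a limit set from dim probes: per traced column, the value under which 95% of its probes flagged as background lay, and then the median over these columns. The groups were compared over all kept probes by lmFit and eBayes of limma 3.58.1, run under R 4.3.3, with 2-sided p-values adjusted by Benjamini-Hochberg and a threshold of 0.05. The script was tested on simulated data. The brightest kept probe stood for a gene. Values in each sample are given for called Hox genes and for the other members of their paralog groups, means or ranges for the rest, and called list members by smallest p, at most 4 a list. Named beyond this rule, after their values were seen, were Hoxa2, Hoxa3, Hoxb5 and Hoxd3 by sample, and Cdx2, Elavl4, Esam, Trp63, Aldh1a1, Aldh1a3, Cyp26a1, Cyp26b1, Ezh2, Hao2 and Rbp2. Other gene names came from RefSeq (GRCm38.p6), for 24496 of 41174 probes by accession, 6234 by symbol and 2418 by synonym.

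Replicate numbers of the titles were used for the pair differences and the block, while the main fit did not pair the samples. The groups come from mice of different Tcf4 genotype, so a same-numbered pair is not 1 animal. Same-numbered tumors and normals deviated together from their group means (correlations 0.226, 0.389, 0.565 and 0.381 over kept probes). Some samples of different numbers did so as strongly (tumor 4 with normal 2 0.391, tumor 2 with normal 4 0.379, tumor 1 with normal 3 0.312), so the shared deviation is not particular to the number. The fit with the number as a block is given where it changes a call. The alternatives were other limits, the brightest probe per gene, centred columns, a trended prior, the scanner files as filed with 2 corrections, the slide as a block on traced columns, and leaving out each sample. Some list and Hox genes enter the counts but are not reported here by name.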

Additional observations from a re-analysis of the deposited data

Results flagged for a closer look

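In 64 groups of 4 samples, each a Hox gene in the tumors or in the normals, a single sample stood far from the others by Dixon's test in 4. Chance flags about 1 in 20 groups, or 3.2 of 64. In normal 3, Hoxa2 was 6.60 (the other normals 8.67 to 8.94), Hoxa13 was 9.45 (10.16 to 10.28) and Hoxb5 was 7.59 (9.04 to 9.23), all log2 values. In tumor 2, Hoxa10 was 13.20 (the other tumors 12.82 to 12.87). Normal 3 is the column that correlated more with each tumor than with any other normal over kept probes. Tumor 2 is the column that matches a scanner file labelled normal, though in its values it correlated most with the other tumors.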

How the results depend on the processing

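With limma on all 8 columns, 1 Hox probe was called higher and 7 lower, and 1 gene higher and 5 lower. These counts stayed within 1.5 times those values with centred columns, a higher limit or the brightest probe per gene. The members changed at the higher limit of 7.70, where only 6 of the 8 called probes were called again. Hoxc6 and Hoxd9 failed that limit and were not tested, and other Hox probes entered the counts. A trended prior called 2 probes and 2 genes higher and lost Hoxc6. Without a filter, 3 probes and 2 genes were lower, and only 4 of the 8 called probes were called again. Hoxa13 (brighter probe), Hoxb13, Hoxc6 and the dimmer Hoxd13 probe were lost. The replicate block called 3606 of 31870 probes and 1 higher and 6 lower Hox probes; beside the changes given with the genes it changed no other Hox call. The calls came to 0 Hox probes and genes in either direction, and to 0 over all probes, in 3 fits. These were the scanner files as filed, scaled by the 75th percentile (1 Hox probe and 651 probes at an unadjusted p under 0.05) or by normexp and quantiles (0 and 726), and the 4 traced columns with the slide as a block (18 and 11372). The fit on traced columns holds only tumors 1 and 2 and normals 1 and 2. Its 0 calls therefore cannot tell too few arrays from absent differences. With the scanner files as filed, differences turned for Hoxa6 (-0.13 and -0.15 with the 2 corrections) and Hoxa9 (-1.15 and -1.06). They also turned for Hoxa11 (-2.91 and -2.19), Hoxc6 (2.21 and 1.31) and Hoxc9 (2.02 and 1.28). The fits on files differ from the main one in arrays and labels as well as in the correction. Of the 8 files, 4 match no column, and these are labelled normal 1, tumor 2, tumor 3 and tumor 4. In the fits on files, the label thus largely coincides with this split. The part of the split in the turned differences was not tested. Leaving out each sample gave 0 to 9 Hox probes higher and 0 to 15 lower, 0 to 8 genes higher and 0 to 11 lower, and 1 to 16474 calls over all probes. Signal over background limits Hoxc6, Hoxc9, Hoxc13 and Hoxd9, and 4 arrays a group limit all of these values.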

Other observations

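Some Hox probes outside the tests still had levels of interest. A Hoxc10 probe, for a gene of the limb and lumbar region, was below the detection limit in all tumors (4.29, 3.29, 4.72 and 3.68) and read 8.53, 5.20, 4.79 and 6.81 in normals 1 to 4, so that only normals 1 and 4 reached the limit. The groups did not overlap. Normal 1 is the column with the highest background, though its value was above that column's own background percentile of 7.70. It was also well above background in the matching scanner file. The other Hoxc10 probe was under the limit in every sample, with overlapping groups. Hoxc8 read 3.28, 3.25, 3.21 and 3.23 in tumors, against 5.21, 3.53, 3.90 and 3.44 in normals, all under the limit. The second Hoxb2 probe lies on the strand opposite to the other Hoxb probes. It read 5.86, 4.58, 4.34 and 4.93 in tumors, against 4.48, 6.53, 4.48 and 7.00 in normals, with its highest values in normals 2 and 4.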
